A study of Mus musculus with 9 samples.

Results

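The genes described here encode the subunits of the proteasome, the activators and the inhibitor that bind it, and the factors that assemble it. They were taken as every gene symbol made of Psm, a letter from a to g and a number, that reached 10 scaled reads in 3 or more libraries. Of 24364 named genes in the tables, 50 symbols matched and 48 passed this filter. Psma8, a testis form of an alpha subunit, and Psmb11, the thymus form of a catalytic subunit, did not pass and had fewer than 10 scaled reads in every library. Of the 48, Psmc3ip is not a proteasome gene, and Psme2b is a near copy of Psme2 whose reads could not be separated from those of Psme2 with certainty. The remaining 46 genes were sorted into 7 alpha-ring genes, 7 constitutive beta-ring genes, 3 immunoproteasome genes, 6 ATPases and 11 non-ATPases of the regulatory particle, 5 activators and inhibitors, and 7 assembly factors.

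The libraries came from mice with acute promyelocytic leukemia (APL). The leukemia arose in hMRP8-PML/RARα transgenic FVB/NJ mice, in which a human myeloid promoter drives the PML/RARα fusion. All 3 groups carried this transgene, were labeled with the GFP vector MigR1, were transplanted into syngeneic recipients, and were sorted from the bone marrow (BM) as GFP+ cells. Recipients received daily intraperitoneal ATRA (all-trans retinoic acid, 10 mg/kg) or ATO (arsenic trioxide, 4 mg/kg) for 6 days, or neither drug (control), with 3 libraries a group described as biological replicates. Per the study's methods, recipients in its transplantations were 6 to 10 weeks old and were either not irradiated or sublethally irradiated. The sources used here do not name the control injection, nor whether the grafts came from the same primary leukemia. The p-values measure the spread between these libraries only.

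The proteasome degrades proteins that carry ubiquitin. Its core is a barrel of alpha and beta rings, and Psmb5, Psmb6 and Psmb7 encode the catalytic beta subunits with chymotrypsin-like, caspase-like and trypsin-like activity. Interferon signaling is known to replace these with Psmb8, Psmb9 and Psmb10, which form the immunoproteasome and favor peptides for MHC class I. The regulatory particle binds, unfolds and feeds the substrate into the core, and dedicated chaperones put both together. PML/RARα is itself a proteasome substrate in cells treated with ATRA or ATO.

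The libraries held 12206900 to 25544096 reads, and the 46 genes had between 176 and 11440 reads each in a library. The median half-width of the 95% interval of a log2 fold change was 0.43 for these genes. Values below are scaled reads, meaning reads divided by the library's size factor. ATRA 3 stood apart by 26 interferon-induced genes, with a summed level of 34006 scaled reads against 8195 and 9393 in ATRA 1 and ATRA 2, 7141 to 8338 in the ATO libraries and 8358 to 8539 in the control libraries. The names of both deposited tables end in a tag that can be read as control 2 and ATRA 3, with no explanation in the sources used here. Whether these libraries were exchanged, corrected or only marked before deposit was not tested, so the ATRA and control values are also given without both. ATO 3 was the shallowest library. Control 2 had the lowest share of reads on the 48 genes that passed the filter, 0.463%. Promyelocyte and neutrophil genes, the labelled cells' own markers, summed to 751718 to 801663 scaled reads in ATRA libraries, 758237 to 1098740 in ATO libraries and 536838 to 722537 in control libraries. Itgam, S100a8 and S100a9 went the other way with ATRA (log2 -0.62, -0.26 and -0.08), and Itgam with ATO (-0.20). Mpo had 49869 scaled reads in control 2, against 264186 and 151752 in the other controls. Ltf had 24195 in control 2, against 2109 and 2329.5 in the other controls. In ATRA 3 Ltf had 1381, against 10511 and 10331 in ATRA 1 and ATRA 2. The summed level of each of 8 marker lists of other cells was lower in every treated library than in every control library, although single members went the other way. The 12 monocyte and macrophage genes summed to 5722 to 8601 scaled reads in ATRA libraries, 7410 to 11862 in ATO libraries and 14473 to 35563 in control libraries. Of these 12 genes, 8 were called lower with ATRA (4.26% of all genes) and 9 with ATO (8.55% of all genes). The macrophage gene Adgre1 was called higher with ATO, with 1156, 1202 and 1124 scaled reads, against 668, 749 and 708 in control libraries (log2 0.71, limma adjusted p = 0.030). Cd68 was 1.40-fold of control with ATO and 1.06-fold with ATRA, and was not called. The 8 stroma genes summed to 49.2 to 90.2 scaled reads in ATRA libraries, 56.6 to 67.3 in ATO libraries and 746 to 1029 in control libraries. Of these 8 genes, 7 were called lower with each drug, against 4.26% of all genes with ATRA and 8.55% with ATO. In each treated library 1 to 3 of the 8 were at 0 reads. The 7 dendritic cell and MHC class II genes summed to 616 to 925 scaled reads in ATRA libraries, 589 to 689 in ATO libraries and 2498 to 4204 in control libraries. No monocyte or macrophage gene was at 0 in any library. The part of these cells in the results below was not tested. In bulk samples, fewer cells of a type and less RNA per cell cannot be told apart.

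For 2 of the constitutive catalytic subunits, which the results below compare with those of the immunoproteasome, short stretches upstream of the start site are shown with the letters of an element known from this gene family. Capitals mark the matched letters, TGACNNNGC, the antioxidant response element core bound by Nfe2l1, searched on either strand within 250 bases before the start.
Psmb5: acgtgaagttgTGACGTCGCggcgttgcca
Psmb6: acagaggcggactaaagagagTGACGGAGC
The stretches come from RefSeq promoters and lie, in mm9, at chr14:55236861-55236890 on the minus strand for Psmb5 and chr11:70338829-70338858 on the plus strand for Psmb6. Of the 48 genes, 41 had a promoter in the table, and TGACNNNGC was in 5 of them (12.2%), against 14.3% of the promoters of all genes tested. The interferon-stimulated response element was in 3 of 41, against 3.18% of the promoters of all genes tested, and in none of the 3 immunoproteasome promoters. CCAAT, the box bound by NF-Y, was in 14 of 41 (34.1%), against 40.3%, among them 5 of 7 alpha-ring genes. The heat shock element was in 3 of 41 (7.32%), against 6.18%. CCGGAAG, the site of ETS factors, was in 13 of 41 (31.7%), against 16.0%, among them 3 of 5 ATPases and 5 of 9 non-ATPases. The 41 include Psmc3ip and Psme2b, and Psmc3ip held both CCAAT and CCGGAAG. All of these are matches of letters only, in the reference and not the FVB/NJ genome. No match to these elements was found for Psmg3, the gene called below. Of the 7 assembly factors, 6 had a promoter to search.

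Levels can be compared between genes only per length. In control libraries Psma7, an alpha-ring gene, had the highest level, 4309 ± 926 scaled reads per kilobase of its longest coding transcript (SD, n = 3), followed by Psmb6 at 3313 ± 966, Psmb3 at 3308 ± 757 and Psmb4 at 3042 ± 728. The ranges of mean ± SD of these 4 neighbours overlapped. The lowest were Psmc6, a regulatory particle ATPase, at 184 ± 56.6 and Psme4, the PA200 activator, at 128 ± 41.7 scaled reads per kilobase. Psma7 and Psme4 kept the first and last place in ATRA libraries (4835 and 119 scaled reads per kilobase) and in ATO libraries (5516 and 86.9).

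The first comparison asked how 6 days of ATO changed the proteasome genes of APL cells in the animal. Nearly all of them were somewhat higher with ATO: 44 of 46 had a positive log2 fold change, against 49.6% of the 12101 genes tested, and their median was 0.35, against -0.01 over all genes. In most of the 46 genes the ATO and control libraries overlapped. Limma, with Benjamini-Hochberg adjustment over all genes and a minimum fold of 1.5, called 1 of the 46 higher, against 6.13% of all genes, and 0 lower, against 8.55%. With no minimum fold, 2 of 46 passed (6.59% of all genes). At an unadjusted p under 0.05, with any fold, 17 of 46 were higher, against 16.6% of all genes, and 0 were lower, against 18.2%. Every ATO library lay above every control library for 11 of the 46 genes, against 15.9% of all genes. The edgeR quasi-likelihood test called the same single gene, against 4.97% of all genes higher. DESeq2 called 3, adding Psmb3 and Psmb5, against 7.12% of all genes higher. Without control 1 the call was made for 8 genes higher, against 12.4% of all genes, and for Psmc6 and Psme4 lower, against 13.1%. Without ATO 1 it was made for 5 higher, against 7.67%. Without control 2, control 3, ATO 2 or ATO 3 it was made for 0, against 4.28%, 0.744%, 1.23% and 1.69% of all genes higher. Without ATO 3, 35 of 46 genes were above 0, against 50.6% of all genes, and their median was 0.23.

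**Figure D1:**
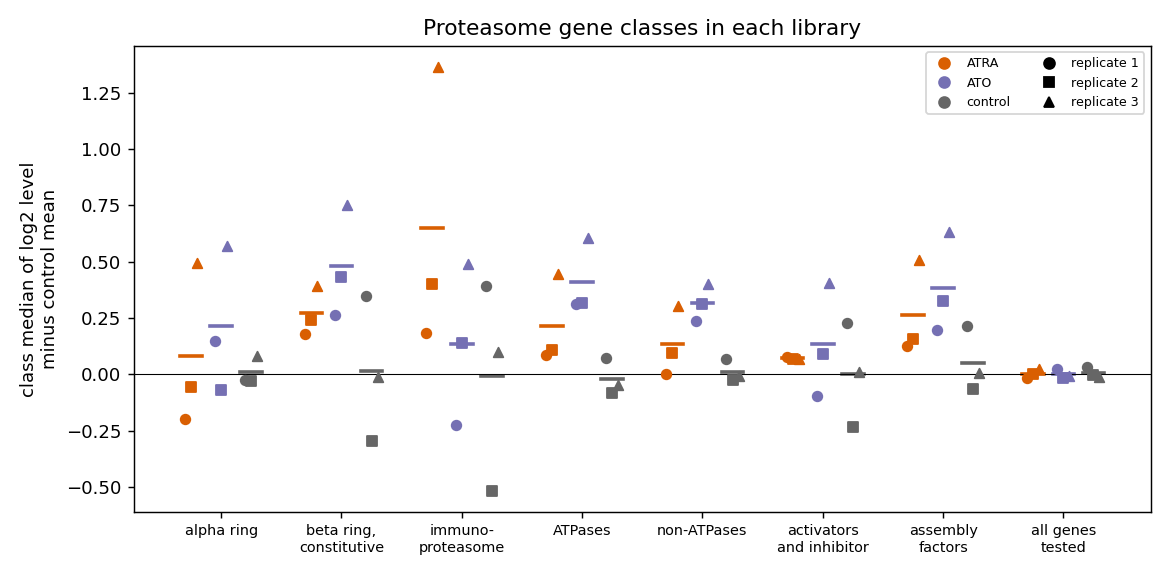
Median log2 level of each proteasome gene class in each library, relative to the mean of the 3 control libraries (y axis, log2 units). Colors mark the groups, symbols the replicate numbers, and bars the group means. ATO 3 and ATRA 3 were the highest libraries of their groups in most classes, and control 2 was the lowest control in every proteasome gene class. The median of all genes tested lay between -0.02 and 0.03 in every library.

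The gene called was Psmg3, a chaperone that pairs with Psmg4 to help build the alpha ring (mm9 chromosome 5, 140299548 to 140302797, minus strand). Psmg3 had 400, 581 and 761 scaled reads in ATO libraries, against 400, 224 and 243 in control libraries. ATO 1 and control 1 had the same value to within a read, so the groups touched, and the other ATO libraries were above all controls. Psmg3 rose 2.01-fold with ATO (log2 1.00 ± 0.26 SE, limma adjusted p = 0.028). The call was lost without control 2 (adjusted p = 0.075), control 3 (0.15), ATO 2 (0.082) or ATO 3 (0.11), with log2 fold changes between 0.79 and 0.98. With ATRA, Psmg3 had 452, 397 and 418 scaled reads, a log2 fold change of 0.59 against the same controls (adjusted p = 0.24).

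The other assembly factors had smaller differences, and none was called. Psmg4, the partner of Psmg3, had 511, 567 and 861 scaled reads in ATO libraries, against 549, 358 and 473 in control libraries, a log2 fold change of 0.48. Psmg1, which with Psmg2 starts the alpha ring, had 704, 832 and 1126 scaled reads in ATO libraries, against 721, 595 and 561 in control libraries (log2 0.48, limma adjusted p = 0.13). For both genes control 1 lay above the lowest ATO library. Psmg2 had 534, 495 and 684 scaled reads with ATO, against 380, 508 and 455 in control. Psmd5, a chaperone of the regulatory particle base, had 1109, 933 and 1193 scaled reads with ATO, against 771, 969 and 804 in control. Psmd9, another base chaperone, had 904, 1027 and 1221 scaled reads with ATO, against 988, 590 and 840 in control. The groups overlapped in all of these. Psmd10 (gankyrin) had 362, 295 and 415 scaled reads in ATO libraries, against 277, 375 and 324 in control libraries, and its log2 fold change of 0.13 was the smallest of the class. The class median was 0.40 with all 7 above 0.

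In the constitutive beta ring, all 7 genes had positive log2 fold changes with ATO and a median of 0.46. Psmb5, the chymotrypsin-like subunit and the target of bortezomib, had 1017, 1314 and 2192 scaled reads in ATO libraries, against 1121, 626 and 750 in control libraries. ATO 3 was far above the other libraries and control 1 exceeded ATO 1, so the groups overlapped. Its difference was 1.77-fold (log2 0.83 ± 0.27 SE) and just missed the threshold in limma (adjusted p = 0.056), while DESeq2 placed it past the threshold (adjusted p = 0.021). Psmb6, the caspase-like subunit, had 2873, 3587 and 4695 scaled reads in ATO libraries, against 3443, 1905 and 2585 in control libraries. Psmb7, the trypsin-like subunit, had 2668, 2751 and 3651 scaled reads with ATO, against 2446, 1949 and 2291 in control. Psmb7 was the only gene of this class in which every ATO library lay above every control, with a log2 fold change of 0.43 (adjusted p = 0.11). Psmb3, a structural subunit, reached log2 0.61 (adjusted p = 0.057). In all 7 genes control 2 was the lowest and ATO 3 the highest of the 9 libraries.

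The alpha ring, which gates the core, had the smallest median of the core classes other than the immunoproteasome. All 7 genes were above 0 with ATO, with a median log2 fold change of 0.18 and no group separated from the controls. Psma5 had the largest difference, with 2124, 1958 and 2839 scaled reads in ATO libraries, against 1962, 1434 and 1793 in control libraries (log2 0.41, adjusted p = 0.16). ATO 2 lay just below control 1, so the groups overlapped.

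The regulatory particle held most of the genes whose groups separated. Psmc4, an ATPase of the base that unfolds the substrate, had 2418, 2694 and 3090 scaled reads in ATO libraries, against 2225, 1683 and 1759 in control libraries. Every ATO library was above every control, and Psmc4 rose 1.45-fold (log2 0.54 ± 0.17 SE, adjusted p = 0.049), under the minimum fold of 1.5. Psmd3, a structural subunit of the lid, had 3588, 4489 and 4824 scaled reads in ATO libraries, against 3526, 2409 and 2827 in control libraries. These groups also did not overlap (log2 0.56 ± 0.18 SE), and the limma adjusted p was 0.053. Psmd2, the ubiquitin-shuttle receptor of the base, had 8230, 8301 and 7832 scaled reads in ATO libraries, against 6619, 6101 and 5930 in control libraries. The groups did not overlap, with a log2 fold change of 0.39 (adjusted p = 0.081). Of the 6 ATPases 4 had separated groups, and of the 11 non-ATPases 5, against 15.9% of all genes. The class medians were 0.41 for the ATPases and 0.34 for the non-ATPases. Psmc6 was the exception, with 342, 300 and 289 scaled reads in ATO libraries, against 266, 507 and 432 in control libraries and overlapping groups (log2 -0.32, adjusted p = 0.34).

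**Figure D2:**
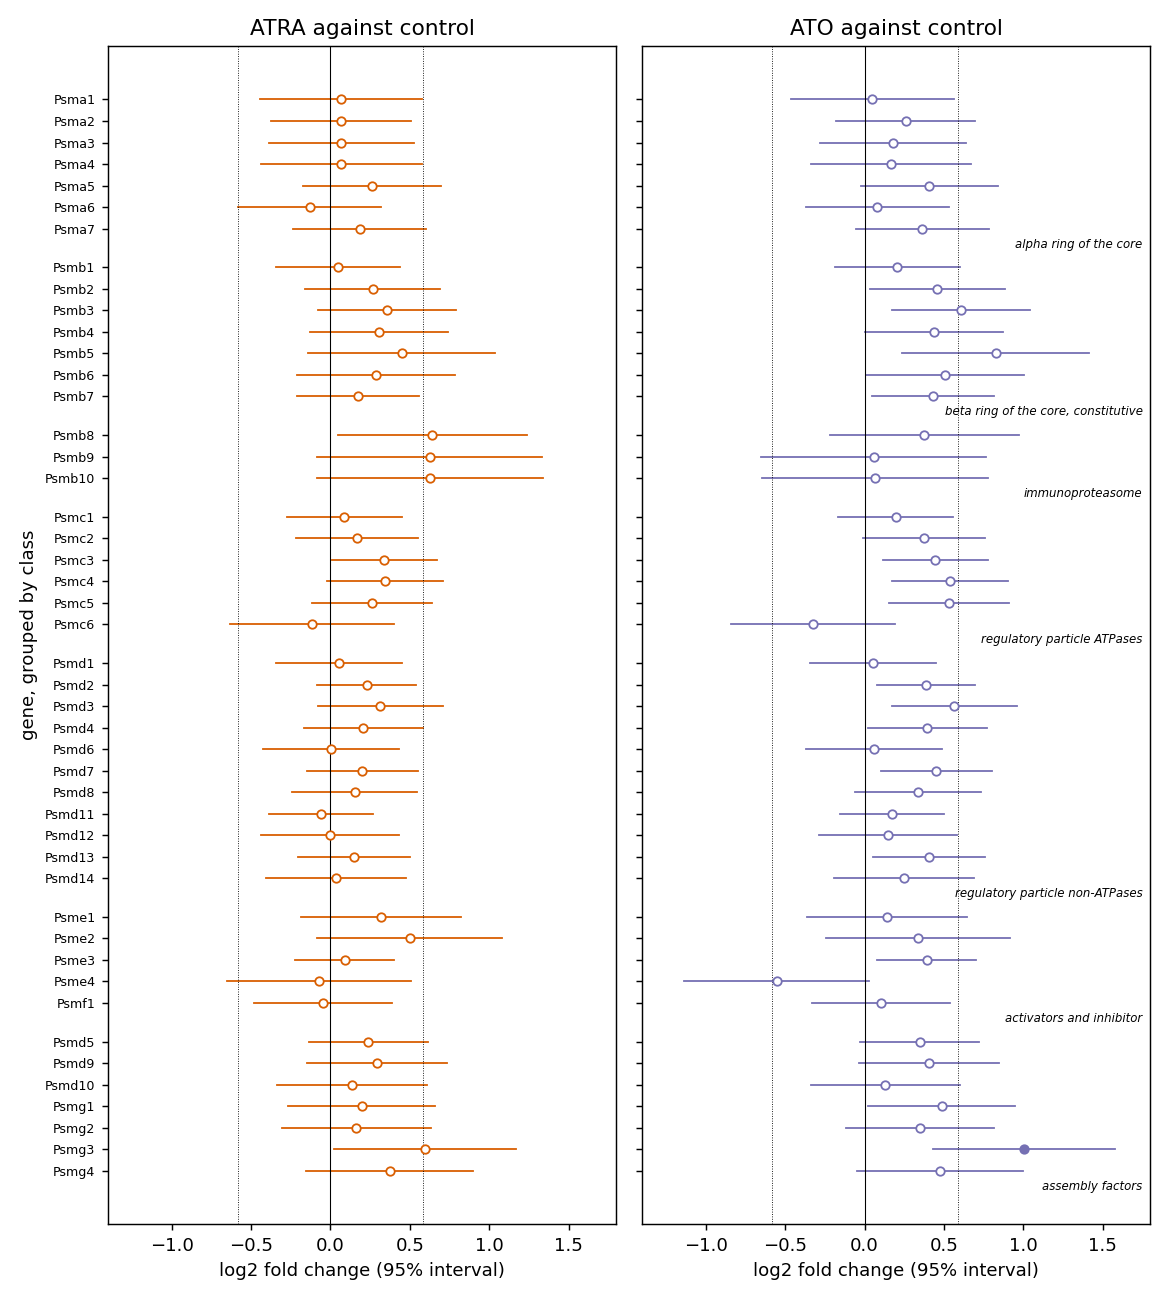
Log2 fold change of each of the 46 genes (circles) with its 95% interval (lines), for ATRA against control (left) and ATO against control (right), grouped by class. Dotted lines mark a fold of 1.5 and a filled circle a called gene. Psmg3 with ATO is the only filled circle, and with ATO 44 of 46 circles lie right of 0.

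Among the activators, Psme3, the nuclear PA28 gamma cap, had 4023, 4318 and 4242 scaled reads in ATO libraries, against 3418, 3294 and 2905 in control libraries. Its groups did not overlap, with a log2 fold change of 0.39 and an adjusted p of 0.081. Psme4, whose PA200 cap is known for work on histones, had 689, 614 and 389 scaled reads in ATO libraries, against 577, 1117 and 807 in control libraries. It had the most negative value of all 46 genes (log2 -0.55 ± 0.27 SE, adjusted p = 0.16), but control 1 lay below ATO 1 and ATO 2. Psmf1, the PI31 inhibitor, had 704, 792 and 948 scaled reads in ATO libraries, against 886, 571 and 844 in control libraries, with overlapping groups and a log2 fold change of 0.10.

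Short transcripts had higher fold changes in these libraries, and the log2 fold change fell by 0.27 for each doubling of transcript length with ATO and by 0.16 with ATRA, over 10906 genes with a length. The 46 genes are short, with a median transcript length of 1435 bases, against 2960.5 over the genes with a length. With the trends of each library on length and GC content removed, the median of the 46 genes with ATO was 0.29, against 0.13 over all genes. Psmg3 kept its call (log2 0.65, adjusted p = 0.0064), and the signs of Psmc6 and Psme4 turned to 0.23 and 0.15.

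The second comparison set ATRA against control. With ATRA 40 of 46 genes were above 0, against 49.5% of all genes, with a median log2 fold change of 0.19, against -0.01 over all genes. Limma called 0 of 46 higher, against 1.34% of all genes, and 0 lower, against 4.26%. Neither edgeR (1.26% of all genes higher and 5.01% lower) nor DESeq2 (2.11% and 5.9%) called any of the 46. At an unadjusted p under 0.05, with any fold, 3 of 46 were higher, against 8.76% of all genes, and 0 were lower, against 10.4%. All ATRA libraries lay above all controls for 3 of the 46 genes, Psmc3, Psmc4 and Psmd2, against 11.5% of all genes. Without control 2 and ATRA 3 the same fit gave 24 of 46 genes above 0, against 52.1% of all genes, and a median of 0.00. Without those libraries the ATO median was still 0.26, with 40 of 46 above 0.

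The immunoproteasome had the largest class median with ATRA, 0.62. Psmb8 (mm9 chromosome 17, 34334666 to 34338399, plus strand) had 3451, 3642 and 6320 scaled reads in ATRA libraries, against 3618, 2008 and 2881 in control libraries. Psmb9 (chromosome 17, 34318932 to 34324697, minus strand), its neighbour in the MHC class II region, had 1589, 1741 and 3638 scaled reads in ATRA libraries, against 1839, 936 and 1599 in control libraries. Psmb10 (chromosome 8, 108459628 to 108462292, minus strand) had 1565, 1965 and 3783 scaled reads in ATRA libraries, against 1964, 1027 and 1573 in control libraries. In all 3 genes ATRA 3 was the highest and control 2 the lowest of the 9 libraries, while ATRA 1 and ATRA 2 lay within or just above the control range. The log2 fold changes were 0.64, 0.62 and 0.62, with limma adjusted p of 0.23, 0.32 and 0.33. Without control 2 and ATRA 3 their median was 0.00.

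Psme1 and Psme2 encode the PA28 alpha and beta cap, also known to be interferon-induced. Psme1 had 1790, 2008 and 3215 scaled reads in ATRA libraries, against 2118, 1539 and 1821 in control libraries. Psme2 had 2308, 2597 and 4653 scaled reads in ATRA libraries, against 2531, 1762 and 2218 in control libraries (log2 0.50, adjusted p = 0.34). Here too ATRA 3 stood far above the other libraries and the groups overlapped. The copy Psme2b had 200, 186 and 314 scaled reads in ATRA libraries, against 178, 111 and 155 in control libraries. Psme3 had 3552, 3310 and 3349 scaled reads in ATRA libraries, against 3418, 3294 and 2905 in control libraries. Its highest ATRA value was in ATRA 1, while ATRA 3 was the highest ATRA library for 42 of the 46 genes. The part of interferon in these values was not tested. Psme4 had 848, 843 and 625 scaled reads with ATRA, against 577, 1117 and 807 in control, and Psmf1 had 730, 681 and 780 with ATRA, against 886, 571 and 844 in control.

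**Figure D3:**
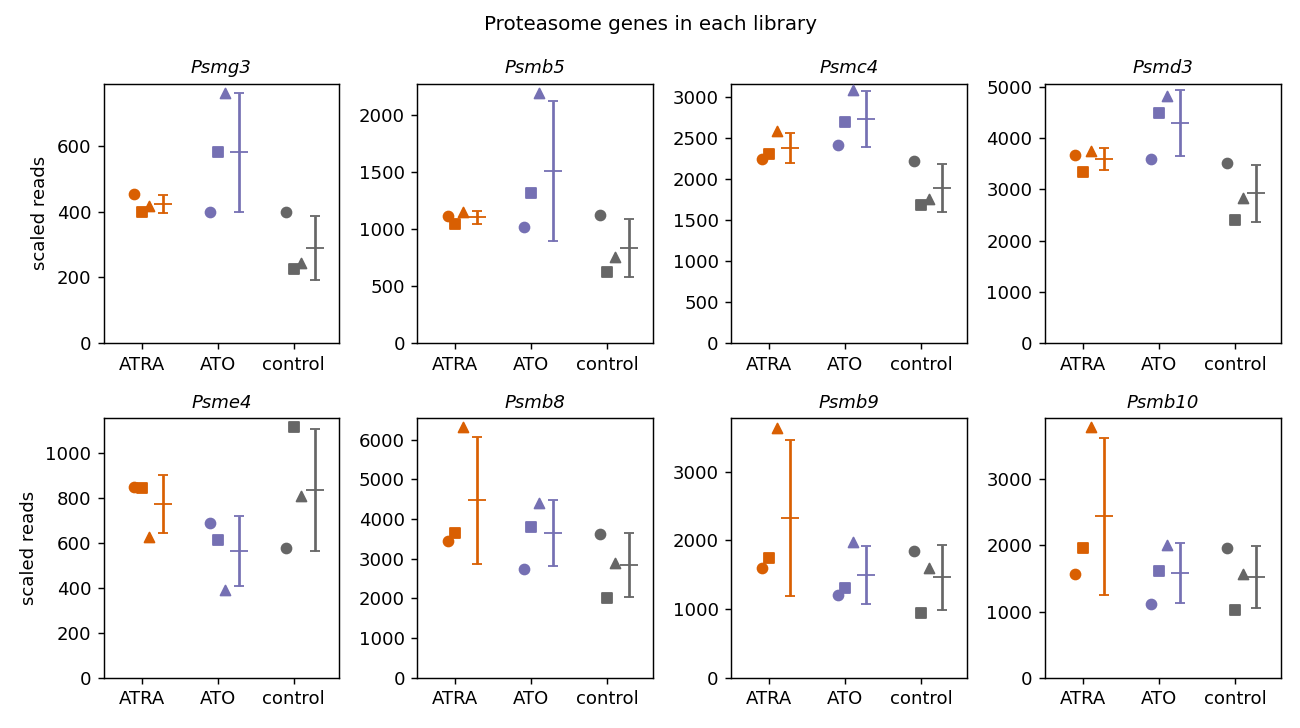
Scaled reads (y axis, from 0) of 8 proteasome genes in each library, with replicates 1 to 3 as circle, square and triangle and the mean ± SD beside them (n = 3). ATO 3 is highest for Psmg3, Psmb5, Psmc4 and Psmd3, and ATRA 3 is highest for Psmb8, Psmb9 and Psmb10.

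In the rest of the core and the regulatory particle, class medians with ATRA were below that of the immunoproteasome. No gene there was called with ATRA (1.34% of all genes higher and 4.26% lower). Psmb5 had 1117, 1038 and 1151 scaled reads in ATRA libraries, against 1121, 626 and 750 in control libraries (log2 0.45, adjusted p = 0.40). Psmb6 had 2909, 3042 and 3458 scaled reads with ATRA, against 3443, 1905 and 2585 in control, and Psmb7 had 2334, 2338 and 2865 with ATRA, against 2446, 1949 and 2291 in control. In each the ATRA libraries were close to control 1 and above control 2. Psma5 had 1787, 1933 and 2524 scaled reads with ATRA, against 1962, 1434 and 1793 in control (log2 0.26). Psmc4 had 2244, 2309 and 2592 scaled reads with ATRA, against 2225, 1683 and 1759 in control, with groups just separated at log2 0.34 (adjusted p = 0.29). Psmd3 had 3679, 3344 and 3757 scaled reads with ATRA, against 3526, 2409 and 2827 in control, and the groups overlapped. Class medians with ATRA were 0.07 for the alpha ring, 0.28 for the constitutive beta ring, 0.22 for the ATPases, 0.15 for the non-ATPases, 0.09 for the activators and inhibitor and 0.24 for the assembly factors. Among the assembly factors, Psmg1 had 637, 641 and 886 scaled reads with ATRA, Psmg2 had 422, 449 and 652, and Psmg4 had 513, 531 and 739, each highest in ATRA 3. Psmd5 had 921, 942 and 1134 scaled reads with ATRA, Psmd9 had 992, 895 and 1018, and Psmd10 had 288, 354 and 438. None of these ATRA groups was separated from its controls.

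Within the ATRA group, ATRA 3 was the highest library for 42 of 46 genes, against 42.7% of all genes tested, and within the ATO group ATO 3 was the highest for 41 of 46, against 39.9%. Control 2 was the lowest control for 29 of 46, against 38.9%. These counts describe how the genes move together between libraries of the same group.

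A ratio within a library does not depend on scaling, and shows how the immunoproteasome subunits stood to the constitutive subunits they replace. With ATO the geometric mean of Psmb8/Psmb5, Psmb9/Psmb6 and Psmb10/Psmb7 was 0.779, 0.853 and 0.774, against 1.11, 0.940 and 1.18 in control libraries. All ATO libraries lay below all controls, with a log2 difference of -0.42. The exact two-sided permutation test gave p = 0.10, the smallest that 3 against 3 libraries allow (0.17 adjusted over 12 ratio tests). The difference was between -0.52 and -0.35 when any single library of either group was left out, and -0.45 with length and GC trends removed. None of the immunoproteasome genes was called with ATO. Psmb8 had 2750, 3786 and 4399 scaled reads in ATO libraries, against 3618, 2008 and 2881 in control libraries. Psmb9 had 1200, 1312 and 1969 scaled reads in ATO libraries, against 1839, 936 and 1599 in control libraries. Psmb10 had 1114, 1620 and 2008 scaled reads in ATO libraries, against 1964, 1027 and 1573 in control libraries. Groups overlapped in all 3, with log2 fold changes of 0.38, 0.06 and 0.06. Psme1 had 1672, 1926 and 2465 scaled reads with ATO, and Psme2 had 2105, 2650 and 3561, both overlapping their controls.

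With ATRA the same geometric mean was 1.04, 1.19 and 1.97, against 1.11, 0.940 and 1.18 in control libraries. ATRA 3 alone was far above the controls, and the exact permutation p was 0.40 for a log2 difference of 0.33. Without ATRA 3 the difference was 0.05. Each ratio of ATO libraries lay below each of the ATRA libraries, with a log2 difference of -0.75 (exact p = 0.10, again the smallest possible). By gene, Psmb8/Psmb5 averaged 2.53 ± 0.46 with ATO, 4.03 ± 1.28 with ATRA and 3.43 ± 0.36 in control (SD, n = 3 each). Psmb9/Psmb6 averaged 0.401 ± 0.030 with ATO, 0.724 ± 0.28 with ATRA and 0.548 ± 0.065 in control. Psmb10/Psmb7 averaged 0.519 ± 0.090 with ATO, 0.944 ± 0.34 with ATRA and 0.672 ± 0.14 in control, and here ATO and control overlapped. The summed macrophage and dendritic cell genes, from cells that express the immunoproteasome, were lower in ATO and ATRA libraries than in control libraries, with Adgre1 higher with ATO as given above, and their part in the ratios was not tested.

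**Figure D4:**
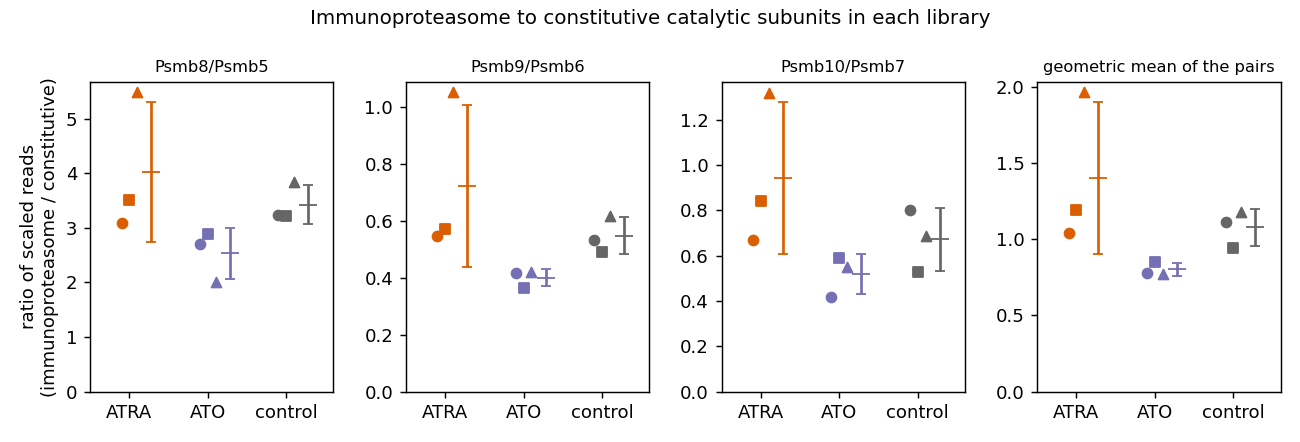
Ratio of scaled reads of each immunoproteasome subunit to the constitutive subunit it replaces, and the geometric mean of the 3 ratios, in each library (y axis from 0). Replicates 1 to 3 are circle, square and triangle, and the mean ± SD stands beside them (n = 3). For the geometric mean every ATO library lies below every control library, and ATRA 3 lies above all others.

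The third comparison set ATO directly against ATRA, since both drugs share the controls above. Limma called 0 of 46 genes in either direction and 0 of all 12101 genes (0% of all genes). The edgeR test also called 0 of 46 and 0% of all genes. DESeq2 called 0 of 46, against 0.413% of all genes higher and 0.182% lower. At an unadjusted p under 0.05 limma had 0 of 46 higher (3.32% of all genes) and 0 lower (2.99%). The intervals were wide. For Psmg3 the log2 difference was 0.41 with a 95% interval of -0.16 to 0.98, for Psmb5 0.38 (-0.21 to 0.96), for Psmb9 -0.57 (-1.28 to 0.14) and for Psme4 -0.48 (-1.06 to 0.10). A difference between the drugs was therefore not shown for any proteasome gene, and these intervals do not show that the drugs acted alike.

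The wider pathway was read from lists of partners. Of 14 proteasome partners outside the symbol rule, 2 were called higher (6.13% of all genes) and 1 lower (8.55% of all genes) with ATO, and none with ATRA (1.34% higher and 4.26% lower of all genes). Zfand2a, a proteasome-binding protein known for its induction by arsenite, had 1493, 1447 and 1168 scaled reads in ATO libraries, against 802, 651 and 808 in control libraries. Its groups were well separated, a 1.81-fold rise (log2 0.86 ± 0.17 SE, adjusted p = 0.0075). With ATRA Zfand2a had 744, 801 and 781 scaled reads, within the control range. Adrm1, the ubiquitin receptor Rpn13, rose 1.61-fold with ATO (2669, 3351 and 4271 scaled reads, against 2594, 1771 and 2000.7 in control, adjusted p = 0.039). Zfand5, another ubiquitin-binding proteasome partner, had 509, 524 and 522 scaled reads with ATO, against 723, 962 and 923 in control, and fell by 0.73 on the log2 scale (adjusted p = 0.018). Pomp, the maturation factor of the core, had 1686, 1758 and 2456 scaled reads with ATO, against 1618, 1559 and 1481 in control, and was not called (adjusted p = 0.25). Adrm1, Pomp and Zfand2a were above every control in each ATO library, as were Txnl1 and Akirin2, which were not called. Over all genes 15.9% were above in this way. Zfand5 was below every control, as were 16.4% of all genes.

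Of 16 genes for ubiquitin, its activating enzymes and its shuttles, 1 was called higher with ATO, a share near the 6.13% of all genes, and none with ATRA. This was Ubqln4, a shuttle for ubiquitinated proteins, with 2363, 2769 and 2350 scaled reads in ATO libraries, against 1880, 1702 and 1302 in control libraries (log2 0.63, adjusted p = 0.032). Another 7 genes were listed for transcription of the proteasome genes or processing of its factors. Of these, Hsf1 was called higher with both drugs (6.13% of all genes with ATO and 1.34% with ATRA). Hsf1, the heat shock factor, had 1835, 2159 and 2227 scaled reads in ATO libraries, against 1393, 1252 and 1011 in control libraries, a 1.71-fold rise (adjusted p = 0.014). With ATRA it had 1994, 1722 and 2054 scaled reads, a 1.59-fold rise against the same controls (adjusted p = 0.039). Nfe2l1, the factor that raises proteasome genes when the proteasome is inhibited, had 3214, 3527 and 2268 scaled reads in ATO libraries, against 2649, 2512 and 2448 in control libraries, with overlapping groups.

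Of 9 partners in class I antigen processing, Irf1 was called higher with ATRA (1.34% of all genes) and none with ATO (6.13%). Irf1, a transcription factor of the immunoproteasome genes, had 648, 839 and 1415 scaled reads in ATRA libraries, against 418, 523 and 432 in control libraries. All ATRA libraries were above all controls and ATRA 3 was the highest, a 2.01-fold rise (log2 1.01 ± 0.26 SE, adjusted p = 0.036). With ATO Irf1 had 462, 424 and 568 scaled reads, overlapping the controls, and the direct limma test of ATO against ATRA called no gene. The peptide transporter Tap1 and the class I chain H2-K1 were highest in ATRA 3, with 4671 scaled reads of Tap1 there, against 1490 to 2982 in control libraries, and 39409.5 of H2-K1, against 11256 to 22712. Of the 23 tested genes of the interferon-induced list, none was called with ATRA, and with ATO 1 was higher, against 6.13% of all genes, and 3 were lower, against 8.55%. Cxcl10, a chemokine, rose 5.52-fold with ATO (649, 860 and 912 scaled reads, against 90.9, 317 and 104 in control libraries, limma adjusted p = 0.0092). The antiviral genes Mx1, Oas2 and Ifih1 fell with ATO. Oas2 had 26.0, 31.2 and 29.5 scaled reads in ATO libraries, against 206, 135 and 261 in control libraries.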

How the data were processed

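PolyA RNA of sorted GFP+ BM cells was sequenced in 9 libraries. Per the study's methods and the submitters' processing notes, the authors trimmed reads with Cutadapt, aligned them with STAR to mm9, kept uniquely mapped reads, counted them with HTSeq and normalized them with DESeq2 (versions not given in the sources used here). The notes also list hg19. The deposited values are a signal, reads divided by a size factor, in 1 table per drug with the same controls. All values were whole multiples of 1 read within 0.01 read, and the recovered control reads were the same in both tables (73092 of 73092 values). The libraries were rescaled together. Of 24391 rows, 27 with date-like names were left out. Genes that reached 10 in 3 or more libraries (12101) were tested on log2(value + 0.5) with limma 3.58.1 in R 4.3.3, in a model of 3 groups, with Benjamini-Hochberg adjustment, and called at an adjusted p under 0.05 and a fold over 1.5. Fold changes are on that log2 scale. edgeR 4.0.16 and DESeq2 1.42.0 on the recovered reads were alternatives, beside other scalings, filters, pseudocounts, a replicate block, removal of length and GC trends, and leaving out each library. The fits were tested on simulated data. Genes were named where called, where largest within their class, or as catalytic, immunoproteasome, activator or assembly genes. Others, such as Psmd2, Psmb3 and Psmc6, met none of these rules in the main fit and were named for their values. The members and lists were chosen with earlier results of these data known. Replicate numbers were checked as pairs by the correlation of deviations from the group means, which was 0.119, 0.162 and 0.331 between ATO and ATRA, and -0.054, 0.223 and 0.267 between ATRA and control. Between ATO and control it was -0.381, 0.078 and -0.025. The result of 1 further promoter element is not reported here.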

Additional observations from a re-analysis of the deposited data

How the results depend on the processing

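With ATO, the count of called proteasome genes was 1, and 3 with DESeq2 (7.12% of all genes higher). It was 2 with length and GC trends removed (Psma2 and Psmg3, 8.4% of all genes higher) and 2 with no minimum fold (6.59%). At an unadjusted p with the fold it was 3 (all higher, against 9.63% of all genes). It was 0 without control 2 and ATRA 3 (5.71% of all genes higher), and 0 to 10 when single libraries were left out. With the trends removed and no minimum fold it was 20, all higher, against 20% of all genes, whose median this moved to 0.13. With the replicate block it was 2 (Psmb5 and Psmg3, 6.13% of all genes higher), although the numbers did not pair ATO with control. The block changed no call between ATO and ATRA. With ATRA the count was 0, and at an unadjusted p with the fold it was 3 with Psme2b and 2 of the 46 without it (4.56% of all genes higher). With the trends removed and no minimum fold it was 10, all higher, against 11% of all genes. The trend-removed counts with no minimum fold and the counts of genes above 0 under other settings were chosen after seeing the data. Without both libraries, 24 genes were above 0 with ATRA, and the ATRA medians were 0.0035 for all 46 genes, 0.0066 for the constitutive beta ring, 0.00039 for the immunoproteasome and -0.037 for the non-ATPases. The ATO median of the non-ATPases was then 0.26, and 0.23 to 0.43 when single libraries were left out.

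Some signs turned, all of genes or ratios that were not called. Without control 2 and ATRA 3, the ATRA log2 values were -0.00947 for Psma5, -0.000445 for Psmb6, -0.015 for Psmb7, -0.040 for Psmb9, -0.047 for Psme1 and 0.31 for Psme4. The ATRA ratio differences were then -0.10 for Psmb8/Psmb5, -0.040 for Psmb9/Psmb6 and -0.040 for the mean of the 3 ratios. The ATO values were then -0.19 for Psmb10, -0.23 for Psmb9 and -0.10 for Psmf1. With length and GC trends removed, ATRA gave 0.39 for Psme4 and 0.19 for Psmf1, and ATO gave -0.24 for Psmb10, -0.20 for Psmb9, -0.13 for Psme1 and 0.15 for Psme4. edgeR gave -0.00211 for Psmb9 with ATO. When single libraries were left out, ATRA values ran from -0.019 to 0.28 for Psmd10, -0.31 to 0.17 for Psme4, -0.24 to 0.069 for Psmf1, -0.031 to 0.28 for Psmg2 and -0.052 to 0.36 for Psmb8/Psmb5. ATO values ran from -0.20 to 0.30 for Psmb10, -0.24 to 0.25 for Psmb9, -0.00669 to 0.27 for Psme1 and -0.10 to 0.21 for Psmf1. The cause was not tested.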
